A study of Mus musculus with 22 samples.

Results

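The genes described here are *Ins1*, *Ins2* and *Iapp*, the 3 genes that encode the peptides co-secreted by mouse β cells. They were found by symbol and Ensembl identifier in both count tables, among 24296 genes shared by the tables (27124 genes at E14.5 and 27504 at P9). Each library held 100 tdTomato+ pancreatic endocrine cells, isolated by fluorescence-activated sorting. At E14.5 (embryonic) there were 6 control and 5 *Isl1CKO* libraries, and at P9 (postnatal) there were 5 control and 6 *Isl1CKO* libraries. *Isl1CKO* cells carried Isl1 f/f, *Neurod1-Cre* and the Ai14 tdTomato reporter, and the study's results give the controls as Isl1 f/+ with the same Cre and reporter, while the sample labels call them wild type. The *Neurod1-Cre* allele and the reporter were therefore common to all 4 groups. The sort drew on cells with a history of *Neurod1* expression, not β cells alone, and each library was a sample of 100 of them. Embryonic pancreas was dissociated with trypsin and P9 pancreas was first perfused with collagenase, so that age and dissociation cannot be told apart.

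Mice have 2 insulin genes. *Ins2* is the ancestral gene with the exon structure shared by other mammals, and *Ins1* is a retroposed copy on another chromosome. Both are read into preproinsulin, which enters the endoplasmic reticulum, is cleaved to proinsulin and is matured by prohormone convertases and carboxypeptidase E in secretory granules. *Iapp* encodes amylin, which is processed by the same enzymes, stored in the same granules and released with insulin. Transcription of these genes in β cells is known to be driven by PDX1, MAFA and NEUROD1 at A-box, C-box and E-box elements, and ISL1, the LIM-homeodomain factor targeted here, is known to bind A-box-like sequences.

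On GRCm38, *Ins1* (ENSMUSG00000035804) occupied chromosome 19 from 52264297 to 52265476 on the forward strand. *Ins2* (ENSMUSG00000000215) was annotated on chromosome 7 from 142678656 to 142743381 on the reverse strand with 9 transcripts. *Iapp* (ENSMUSG00000041681) occupied chromosome 6 from 142298423 to 142303961 on the forward strand, inside *Slco1a5* on the opposite strand with 0 shared exonic bases. Because *Ins1* and *Ins2* are similar in sequence, they were compared for windows that a read could not place. The *Ins1* transcript was set against all 9 *Ins2* transcripts, and 1 *Ins2* transcript against that of *Ins1*. Of the 30-base windows, 4.84% of *Ins1* and 11.14% of *Ins2* were identical in the other gene, and of the 50-base windows 0.69% and 1.63%. Of the 75-base windows, the cycle number of the sequencing kit, none of 988 in *Ins1* was shared. Reads that mapped to several places were left out of the deposited counts, so a small part of each gene could have been lost at shorter read lengths. The annotated length of *Ins1* differs between annotations, and levels of the 3 genes are not ranked against each other here. Ratios of their counts are compared between libraries, where a fixed length cancels.

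The 250 bases before the annotated start site are shown for the members with a RefSeq promoter available (GRCm38.p6). The windows follow that annotation, and whether they hold the elements where the regulators described further on are known to act was not tested. The *Ins1* transcript is annotated at 1062 bases, against 478 for the *Ins2* transcript compared above, and its start was not checked. TATAAA occurred in neither window. Capitals mark TAAT, the homeodomain core, and CANNTG, the E-box, on either strand. The windows lie at chr19:52264047-52264296 for *Ins1* and chr6:142298175-142298424 for *Iapp*, both on the forward strand.
Ins1: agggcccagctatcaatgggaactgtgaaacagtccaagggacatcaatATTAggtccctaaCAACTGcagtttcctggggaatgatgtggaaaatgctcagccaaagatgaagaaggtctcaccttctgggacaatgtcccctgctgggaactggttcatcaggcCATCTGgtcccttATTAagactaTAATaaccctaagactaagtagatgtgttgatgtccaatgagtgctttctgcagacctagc
Iapp: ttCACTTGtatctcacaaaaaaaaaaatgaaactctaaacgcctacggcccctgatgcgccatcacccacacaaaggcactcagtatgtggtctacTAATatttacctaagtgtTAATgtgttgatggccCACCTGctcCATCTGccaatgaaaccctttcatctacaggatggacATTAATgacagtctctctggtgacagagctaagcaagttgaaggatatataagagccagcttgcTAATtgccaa
The *Ins1* window held TAAT at 3 places and the *Iapp* window at 5, of which 2 overlap by 2 bases, whereas 54.9% of 32851 RefSeq promoter windows of the same length held at least 1. CANNTG occurred 2 times in *Ins1* and 3 times in *Iapp*, and 66.2% of the windows held at least 1. As many TAAT matches as in *Iapp* were found in 5.54% of windows, and as many as in *Ins1* in 17.3%. These matches describe the letters of the windows and not occupancy.

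The libraries were similar in depth, with 8477482 to 13580985 counts assigned to genes in each. Acinar, macrophage, endothelial, mesenchymal, erythroid and ductal marker lists each summed to at most 0.0858% of the counts of any library, and 6 β-cell markers to between 0.0723% and 0.282%. The targeted gene was 1.40-fold lower in *Isl1CKO* cells at E14.5 (log2 fold change -0.48 ± 0.08 SE, edgeR adjusted p = 0.0063). At P9 its count was higher in the libraries labelled *Isl1CKO* (log2 fold change 1.08 ± 0.21 SE, edgeR adjusted p = 0.0081). A gene-level count adds reads from all exons and the position of the loxP sites is not given in the sources used here, so the count does not check the deletion. Directions at P9 below rest on the labels.

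At E14.5 all 3 transcripts were already present in every library, and none passed the test between genotypes. The share of all counts taken by *Ins1* in the 6 control libraries had a lowest value of 0.129%, a median of 0.199% and a highest of 0.567%. In the 5 *Isl1CKO* libraries it was 0.220%, 0.0837%, 0.243%, 0.0351% and 0.125%. *Isl1CKO* libraries 2, 4 and 5 lay below every control library, and libraries 1 and 3 lay among the controls.
*Ins2* shares ranged from 0.549% to 1.98% in controls, with a median of 0.932%. In *Isl1CKO* they were 1.03%, 0.435%, 0.856%, 0.185% and 0.276%. Again libraries 2, 4 and 5 lay below every control and the other 2 did not.
*Iapp* shares ranged from 0.346% to 0.994% in controls, with a median of 0.620%. In *Isl1CKO* they were 0.821%, 0.373%, 0.502%, 0.129% and 0.305%, and the groups overlapped.
The spread was large within a genotype, 4.40-fold for *Ins1* among the controls and 6.92-fold among the *Isl1CKO* libraries.

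In the fit across all 15960 genes tested at E14.5, in which 1.43% of genes were called at an adjusted p under 0.05, the 3 members gave log2 fold changes of -0.96 ± 0.48 (SE) for *Ins1*, -1.01 ± 0.44 for *Ins2* and -0.54 ± 0.37 for *Iapp*. Their edgeR adjusted p values were 0.48, 0.38 and 0.64. The 95% interval of the *Ins2* change ran from -1.95 to -0.08, that of *Ins1* from -1.99 to 0.07 and that of *Iapp* from -1.34 to 0.25, so that a fall of over 2-fold and no change both lay within the interval of *Ins1* and *Iapp*. Some macrophage transcripts reached higher counts in *Isl1CKO* libraries, with 0 of 4 tested markers called. The highest counts were 323 in *Isl1CKO* against 1 in controls for *C1qb*, 264 against 19 for *C1qc* and 121 against 23 for *Csf1r*. They were 632 against 526 for *C1qa* and 6 against 1 for *Adgre1*. *Cd68* (46 against 58) and *Lyz2* (14 against 23) went the other way. The summed list of these markers took 0.00364% to 0.0111% of counts in *Isl1CKO* and 0.00375% to 0.00541% in controls. Without *Isl1CKO* libraries 3, 4 and 5, where these markers were highest, the changes were -0.84 for *Ins1*, -0.61 for *Ins2* and -0.04 for *Iapp*, each with an adjusted p of at least 0.85. This set was chosen after seeing the data, and it includes libraries 4 and 5, which had the lowest *Ins2* and *Iapp* shares. Leaving those out makes the falls of *Ins2* and *Iapp* smaller by itself, so the part of macrophage transcripts was not tested. Ductal markers took 0.0559% to 0.0784% of counts in controls and 0.0740% to 0.0858% in *Isl1CKO*, with 1 of 5 called (*Krt7*, log2 fold change 0.31, edgeR adjusted p = 0.042). Mesenchymal markers took 0.00178% to 0.00648% in controls and 0.00134% to 0.00261% in *Isl1CKO*, with 0 of 3 called, and the part of either list in the result was not tested. In these sorted pools, fewer hormone-producing cells and less RNA per cell cannot be told apart.

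At P9 both insulin genes fell in the libraries labelled *Isl1CKO*, while *Iapp* did not pass the test. *Ins1* took 8.95%, 10.8%, 10.4%, 10.1% and 10.5% of counts in the 5 controls, and between 2.60% and 6.33% in the 6 *Isl1CKO* libraries, with a median of 4.93%. Every *Isl1CKO* library lay below every control.
*Ins2* took 31.2%, 39.8%, 32.9%, 38.1% and 33.7% in controls. In *Isl1CKO* it took between 7.54% and 18.5%, with a median of 14.3%, and the groups did not overlap.
*Iapp* took 2.34%, 2.87%, 2.71%, 2.78% and 2.45% in controls and between 1.98% and 3.44% in *Isl1CKO*, with a median of 2.67%. The 6 *Isl1CKO* libraries fell on both sides of the controls.

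**Figure D1:**
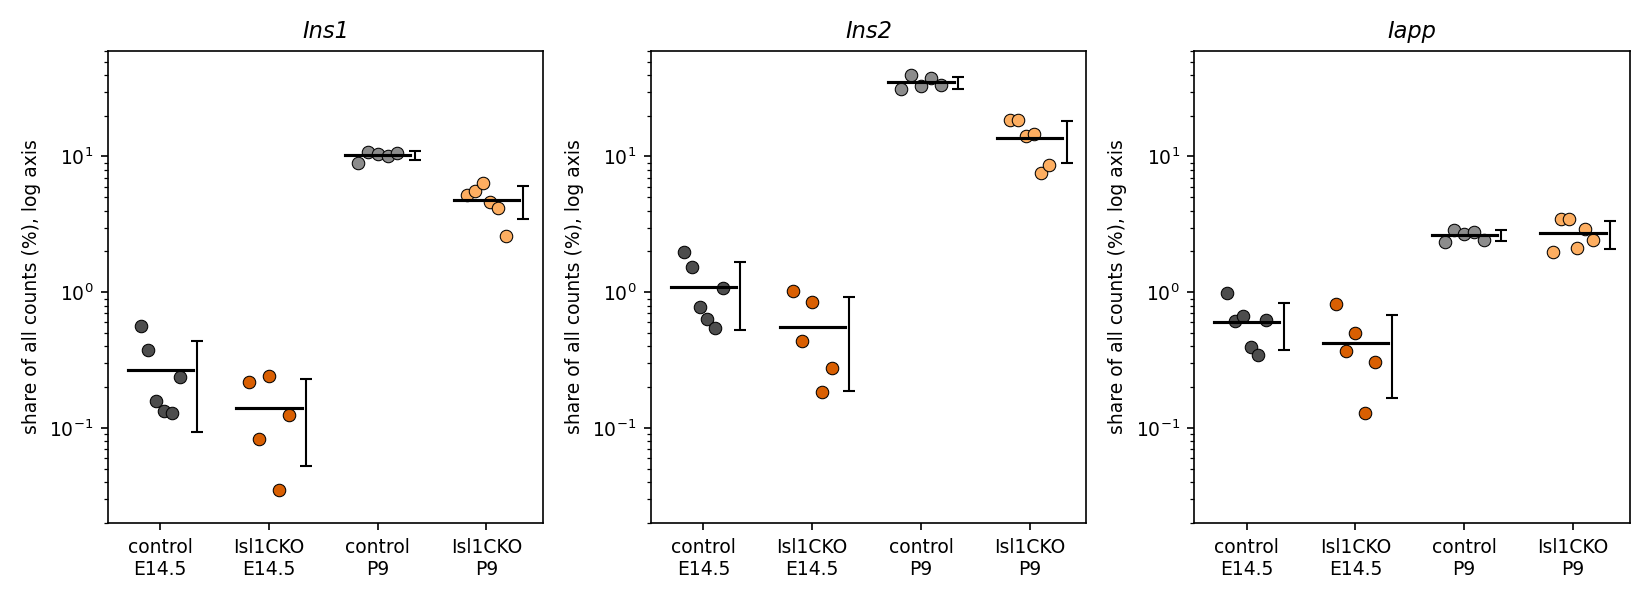
Share of all counts (%, log axis) taken by *Ins1*, *Ins2* and *Iapp* in each library of the 4 groups. Points are libraries, horizontal lines group means and bars ± 1 SD. At P9 all *Isl1CKO* points for *Ins1* and *Ins2* lie below all control points, and those for *Iapp* overlap the controls.

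By exact two-sided permutation over libraries, the difference in mean share at P9 was -5.42 percentage points for *Ins1* and -21.5 for *Ins2*, each with p = 0.00433, the smallest that 5 against 6 libraries can give (adjusted p = 0.013 over 6 comparisons). For *Iapp* the difference was 0.09 percentage points (exact permutation p = 0.766, adjusted p = 0.766). The 8 islet hormone genes together took 51.1% to 56.4% of counts in P9 controls and 14.0% to 30.2% in *Isl1CKO*, which lowers the share left for all other genes, and the fit across genes used trimmed mean of M values (TMM) scaling. On that scale *Ins1* had a log2 fold change of -1.72 ± 0.22 (SE, 95% interval -2.20 to -1.25) and *Ins2* of -1.99 ± 0.27 (-2.55 to -1.42), with edgeR adjusted p values of 0.00036 and 0.00043, where 4.81% of 13964 genes were called. *Iapp* had a log2 fold change of -0.59 ± 0.18 (-0.98 to -0.20), an unadjusted p of 0.0056 and an edgeR adjusted p of 0.082. The value for *Iapp* depended on the scaling. It was 0.05 when counts were divided by library totals alone (edgeR adjusted p = 0.82). That scaling moved the median of all genes to 0.68 and called 3962 of them, 3811 higher. The *Iapp* value was -0.71 when the 8 hormone genes were left out of the totals (edgeR adjusted p = 0.026). *Ins1* and *Ins2* were lower and passed under each of these scalings. Ductal marker counts moved with genotype at P9, at 0.0142% to 0.0181% of counts in controls and 0.0245% to 0.0655% in *Isl1CKO*, with 0 of 5 tested markers called (2 higher with library totals alone), and their part in the result was not tested. The summed endothelial list did so too, at 0.000127% to 0.000469% of counts in controls and 0.000954% to 0.00260% in *Isl1CKO*. *Esam* had 3 to 41 counts in controls and 41 to 283 in *Isl1CKO*, and *Pecam1* 0 to 18 and 0 to 70. *Kdr*, *Cdh5*, *Tie1* and *Tek* had at most 11 counts in any P9 library. The 1 endothelial marker tested, *Esam*, had a log2 fold change of 2.15 (edgeR adjusted p = 0.081, and 0.0077 with library totals alone), and the part of these markers was not tested either.

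**Figure D2:**
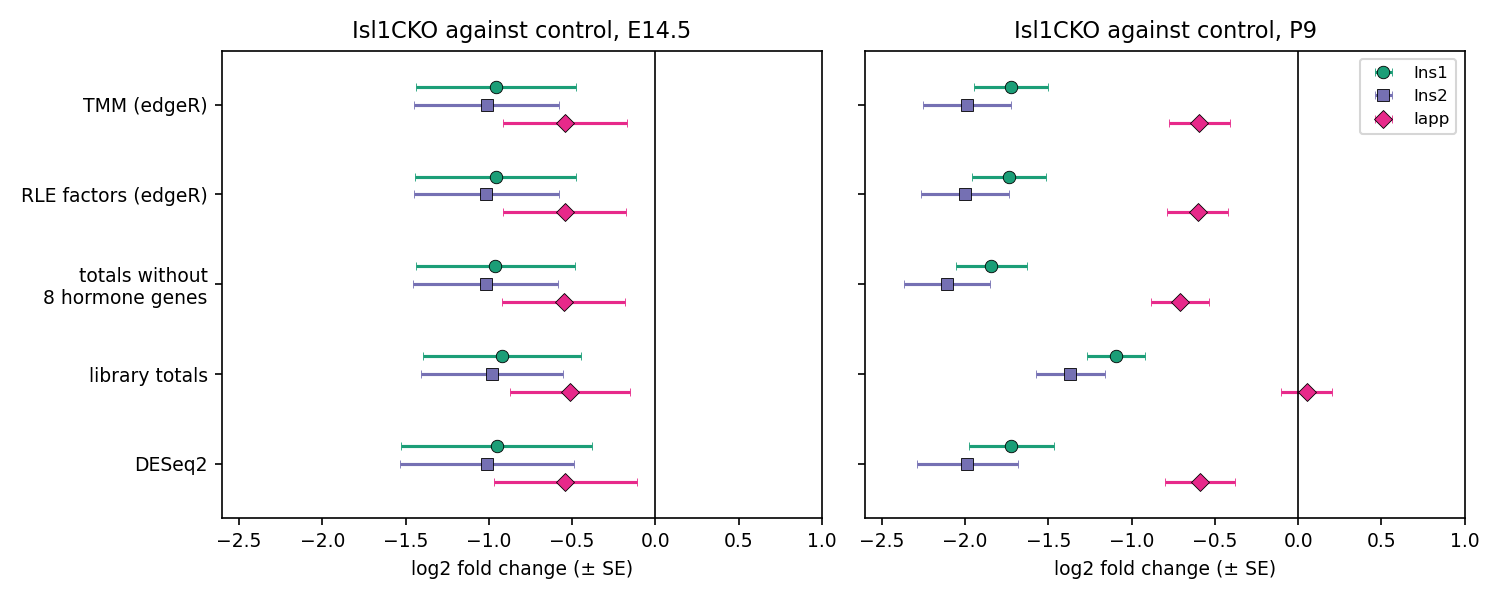
Log2 fold change (± SE) of *Ins1*, *Ins2* and *Iapp* between *Isl1CKO* and control at E14.5 (left) and P9 (right) under 5 ways of scaling or testing. At P9 *Ins1* and *Ins2* stay below 0 throughout, while *Iapp* moves from -0.71 to 0.05 between scalings.

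The difference between the genotype effects at the ages was tested in a joint fit of both tables, in which 2.08% of 17265 genes were called. It was -0.76 ± 0.56 (SE) on the log2 scale for *Ins1*, -0.97 ± 0.54 for *Ins2* and -0.04 ± 0.44 for *Iapp*, with edgeR adjusted p values of 0.58, 0.42 and 0.98. A larger effect of *Isl1CKO* at P9 than at E14.5 was therefore not shown for any of the 3 genes.

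All 3 genes rose between the ages in both genotypes. In controls the log2 change from E14.5 to P9 was 6.42 ± 0.49 (SE) for *Ins1*, 6.18 ± 0.46 for *Ins2* and 3.29 ± 0.33 for *Iapp*, which are folds of 85.4, 72.3 and 9.75. In *Isl1CKO* cells the changes were 5.66 ± 0.51, 5.21 ± 0.47 and 3.24 ± 0.35, or 50.5-fold, 37.0-fold and 9.48-fold. All 6 passed in edgeR, with the largest adjusted p at 2.5e-07, and in no case did the ages overlap. Calls for age were common, at 31.0% of genes in controls and 29.7% in *Isl1CKO*. With library totals alone, which shifted the median of all genes to -1.21, the control changes were 5.25 for *Ins1*, 5.00 for *Ins2* and 2.11 for *Iapp*.

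The balance of the 3 transcripts within a library does not depend on scaling. In control E14.5 libraries the *Ins2* to *Ins1* ratio ranged from 3.50 to 4.91, with a median of 4.40, and in control P9 libraries it was 3.49, 3.66, 3.16, 3.76 and 3.20. The groups overlapped by the single E14.5 library at 3.50. The ratio of counts fell with age in controls by 0.33 on the log2 scale, a 1.25-fold change of the geometric mean (exact permutation p = 0.013, adjusted p = 0.026 over 6 comparisons).
In *Isl1CKO* cells the ratio was 4.67, 5.20, 3.53, 5.28 and 2.20 at E14.5 and between 1.80 and 3.52 at P9, with a median of 3.23. *Isl1CKO* libraries 3, 4 and 5 at P9, at 2.23, 3.13 and 1.80, lay below all controls, of which the lowest was 3.16, and the other 3 lay among them. The genotype difference did not pass at E14.5 (log2 difference -0.12, exact permutation p = 0.675) or at P9 (-0.30, exact permutation p = 0.113, adjusted p = 0.135). The insulin genes thus fell by amounts that were not separated from each other by this test.

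The ratio of *Iapp* to insulin (*Ins1* and *Ins2* summed) separated the groups at P9. In controls there were 5.83, 5.67, 6.26, 5.76 and 5.53 *Iapp* counts for each 100 insulin counts, a spread of 1.13-fold. In *Isl1CKO* libraries there were between 8.38 and 24.9, with a median of 15.6. The means were 5.81 ± 0.275 (SD, n = 5) and 16.2 ± 6.24 (SD, n = 6). All 6 *Isl1CKO* libraries lay above all 5 controls, and they differed 2.97-fold among themselves. The log2 difference was 1.38, a 2.61-fold higher geometric mean (exact permutation p = 0.00433, the smallest possible, adjusted p = 0.013).
At E14.5 the same ratio ranged from 32.0 to 71.0 in controls, with a median of 49.2, and was 65.9, 71.9, 45.7, 58.5 and 75.9 in *Isl1CKO*. The groups overlapped, and the log2 difference of 0.41 did not pass (exact permutation p = 0.0866, adjusted p = 0.13). Between the ages the ratio fell in controls by 3.02 on the log2 scale, an 8.12-fold change of the geometric mean (exact permutation p = 0.00433, adjusted p = 0.013). In *Isl1CKO* its geometric mean was 4.14-fold lower at P9 than at E14.5, a difference that was not tested.

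**Figure D3:**
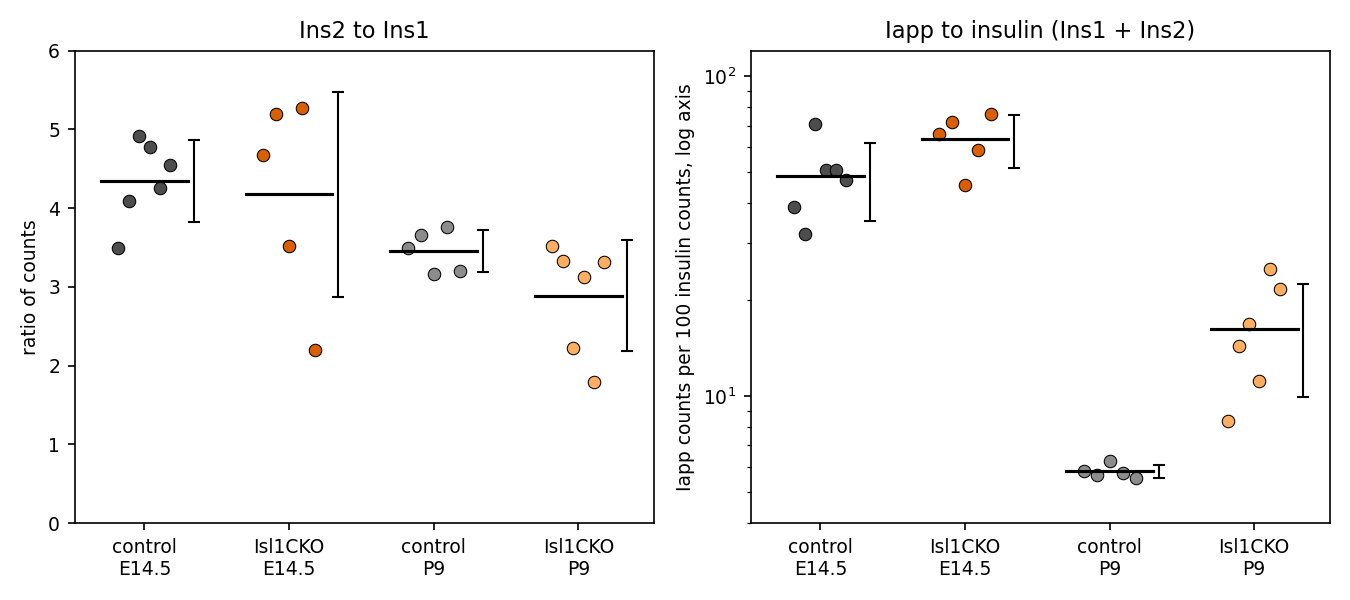
Ratio of *Ins2* to *Ins1* counts (left, linear axis from 0) and *Iapp* counts per 100 insulin counts (right, log axis) in each library. Points are libraries, lines group means and bars ± 1 SD. The 5 P9 control libraries lie between 5.53 and 6.26 on the right, below all 6 *Isl1CKO* libraries.

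Relations between members over the libraries of a group were tested in control E14.5 and *Isl1CKO* P9 cells, and 1 of 6 passed the adjustment. Among the 6 control E14.5 libraries, *Ins1* and *Ins2* had a Pearson r of 0.99 (exact permutation p = 0.00278, adjusted p = 0.0167 over 6 relations) and a Spearman rho of 1.00 (exact permutation p = 0.00278, adjusted p = 0.0167), and r was 0.98 without the 2 libraries farthest from the median of *Ins1*. For *Ins1* and *Iapp* r was 0.85 and rho 0.77 (exact permutation p = 0.0306 and 0.103, adjusted 0.0611 and 0.154), with r at 0.77 without the 2 farthest. For *Ins2* and *Iapp* r was 0.88 and rho 0.77 (exact permutation p = 0.0278 and 0.103, adjusted 0.0611 and 0.154), with r at 0.60. Neither relation with *Iapp* passed the adjustment.
In the 6 *Isl1CKO* P9 libraries none of the 3 relations passed. There *Ins1* and *Ins2* had an r of 0.82 and a rho of 0.77 (exact permutation p = 0.0722 and 0.103, adjusted 0.108 and 0.154), *Ins1* and *Iapp* 0.62 and 0.43 (0.164 and 0.419, adjusted 0.197 and 0.503), and *Ins2* and *Iapp* 0.35 and 0.20 (0.544 and 0.714, adjusted 0.544 and 0.714), all by exact permutation. Without the 2 farthest libraries r was 0.96, 0.45 and 0.25.

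The genes most like each member were sought among 9695 genes, by correlation of log2 values over the 22 libraries after group means were removed. *G6pc2*, the islet glucose-6-phosphatase subunit, came first for all 3 by Pearson r, at 0.81 for *Ins1*, 0.94 for *Ins2* and 0.82 for *Iapp*. Without the 2 libraries farthest from the median these were 0.76, 0.92 and 0.66. *Tob1*, at 0.81, then stood above it for *Iapp*, and *Ppp1r1a*, also at 0.76, was level with it for *Ins1*. By Spearman rho over the 22 libraries *Ppp1r1a* (0.822) stood above *G6pc2* (0.816) for *Ins1*, and *Tob1* (0.772) above *G6pc2* (0.753) for *Iapp*. By Pearson r *Ppp1r1a*, a phosphatase-1 inhibitor, came second for *Ins1* (0.80) and *Ins2* (0.92). *Mrpl23*, a mitochondrial ribosomal protein gene, was next for *Ins1* (0.78) and *Atp2a2*, the endoplasmic reticulum calcium pump, next for *Ins2* (0.88). *Tob1* (0.81) and *Lbh* (0.75) followed for *Iapp*, and the likeness of *Lbh* was 0.55 without the 2 libraries farthest from the median. Within single groups, r with *G6pc2* ran from 0.57 to 0.94 for *Ins1*, 0.82 to 0.99 for *Ins2* and 0.46 to 0.94 for *Iapp*. The lowest for *Iapp* was in *Isl1CKO* P9. There *Lbh* had an r of 0.06 with *Iapp* and *Tob1* one of 0.85, while *Tob1* had 0.36 in control P9. Likeness to each other was 0.90 for *Ins1* and *Ins2*, 0.84 for *Ins1* and *Iapp* and 0.81 for *Ins2* and *Iapp*. These values describe 22 libraries that share their scaling and their mixture of cells.

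Of 14 genes listed as regulators of the insulin genes, all were tested at E14.5 and 12 at P9, with the shares of called genes given above as background. At E14.5 2 fell and none rose, with a list median of -0.10 on the log2 scale beside 0.00 for all genes. Log2 fold changes were -0.71 (edgeR adjusted p = 0.026) for *Pdx1*, the β-cell homeodomain activator, and -0.39 (0.0069) for *Pax6*, a paired-box factor required by islet cells. At P9 2 fell and 1 rose, with a median of -0.32 beside 0.02 for all genes. *Mafa*, the activator of insulin genes in mature β cells, ranged from 1321 to 3401 scaled counts among controls and from 5.00 to 115 among *Isl1CKO* libraries, a log2 fold change of -5.60 ± 0.68 (SE, edgeR adjusted p = 2e-04). At E14.5 *Mafa* had a change of -2.57 that did not pass (0.07), with 321 to 1065 raw counts in controls and 5 to 235 in *Isl1CKO*. The P9 value was -1.46 (0.00034) for *Pdx1*, and *Rfx6*, an islet winged-helix factor, rose by 1.12 at P9 (0.028). *Neurod1*, the E-box activator whose Cre allele all cells carried, had changes of 0.13 at E14.5 and -0.07 at P9 that did not pass (0.59 and 0.89). With library totals alone, 3962 of 13964 genes were called at P9, 3811 of them higher, and the median of all genes stood at 0.68. On that scale 5 of the 12 were higher and 2 lower, and *Mafa* and *Pdx1* stayed lower.

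The 15 genes of granule content and prohormone processing were called in both directions. At E14.5 3 rose and 1 fell, beside 1.43% of all genes called, with a median of 0.10 beside 0.00 for all genes. At P9 4 rose and 3 fell, beside 4.81% of all genes called, with a median of 0.18 beside 0.02. These P9 counts were 10 higher and 3 lower with library totals alone, beside 3811 higher and 151 lower among all 13964 genes. Without the hormone genes in the totals they were 4 and 5, beside 292 and 460 among all genes. The enzymes that convert the proinsulin and pro-amylin precursors were not called: at P9 *Pcsk1* had a change of -0.67 (edgeR adjusted p = 0.094), *Pcsk2* -0.02 (0.96) and *Cpe* 0.18 (0.46). *Pcsk1* passed without the 8 hormone genes in the totals (-0.79, edgeR adjusted p = 0.036). With library totals alone *Pcsk2* (0.63, 0.0031) and *Cpe* (0.83, 0.00019) were called higher, where the median of all genes was 0.68. *Pam*, which amidates peptides such as amylin, rose by 1.17 at P9 (0.00022). *Slc30a8*, the zinc transporter that loads insulin granules, had a log2 fold change of -1.08 at P9 (0.00038) and one of -0.69 at E14.5 that did not pass (0.24). Members of the granin family, which package granule contents, moved in opposite directions. *Chga* rose by 0.65 at E14.5 (0.0049) and by 0.83 at P9 (7e-04), and *Chgb* rose by 0.91 (0.00032) and by 4.43 (1.6e-07). *Scg2* had log2 fold changes of -1.13 (0.026) and -2.40 (0.00096).

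**Figure D4:**
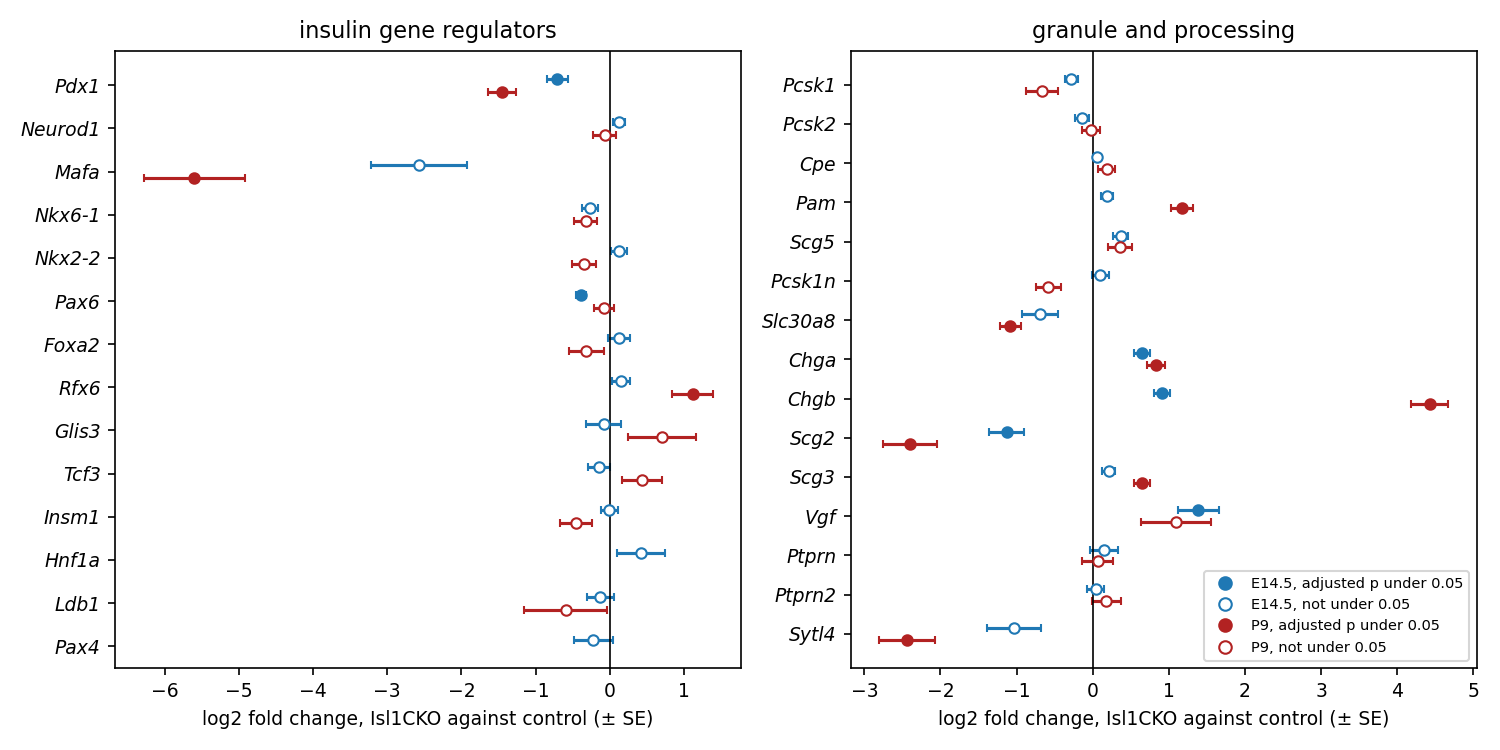
Log2 fold change (± SE) between *Isl1CKO* and control for listed regulators of insulin genes (left) and granule and processing genes (right), at E14.5 (blue) and P9 (red). Filled points have an edgeR adjusted p under 0.05. *Mafa* at P9, at -5.60, is the lowest value on the left and *Chgb* at P9, at 4.43, the highest on the right.

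Of 15 genes of protein synthesis in the endoplasmic reticulum, 14 were tested, none was called at E14.5, beside 1.43% of all genes, and 1 fell at P9, beside 4.81% of all genes, the chaperone partner *Sdf2l1*, with a log2 fold change of -1.51 (edgeR adjusted p = 0.0036). The list medians were 0.03 and -0.23. *Hspa5*, the luminal chaperone, had changes of 0.00 and -0.28 that did not pass (1 and 0.42). Of 10 genes for receptors, signalling and degradation of insulin and amylin, 8 were tested at E14.5 and 6 at P9, and none was called, the smallest adjusted p at P9 being 0.089 for *Ramp1*, a subunit of amylin receptors. With library totals alone, 237 of 15960 genes were called at E14.5 and 3962 of 13964 at P9, 3811 of the latter higher. The median of all genes at P9 stood at 0.68 on that scale. There 2 of the endoplasmic reticulum genes were higher at E14.5 (*Spcs1*, edgeR adjusted p = 0.033, and *P4hb*, 0.047). At P9 8 were higher and 1 lower, and 4 of the 6 receptor, signalling and degradation genes were higher. Of the other 5 islet hormones, 3 fell at P9, with a list median of -3.53, among them *Gcg*, which encodes glucagon, with a log2 fold change of -6.03 (edgeR adjusted p = 0.0026). At E14.5 2 fell, *Gcg* with -3.77 (0.015) and *Pyy*, the peptide YY gene, with -0.90 (0.034). At P9 *Pyy* (-1.65, 0.099) and *Ghrl*, the ghrelin gene (-0.38, 0.77, and 0.33 with library totals alone), did not pass.

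Among 6 β-cell markers, 1 fell at E14.5, beside 1.43% of all genes called, and 5 fell at P9, beside 4.81%. The list median at P9 was -2.10, beside 0.02 for all genes. *Mafa* and *Pdx1* were also among the listed regulators. The marker not called at P9 had a change of -0.33 (edgeR adjusted p = 0.27), and of 0.32 with library totals alone (0.094). *G6pc2*, the gene most like the members by Pearson r, ranged from 9255 to 13852 scaled counts among P9 controls. Among *Isl1CKO* libraries it ranged from 981 to 2892, a log2 fold change of -2.48 ± 0.26 (SE, edgeR adjusted p = 4.4e-05). *Ucn3*, a peptide of mature β cells, had -4.27 (8.5e-05) and *Slc2a2*, the glucose transporter, -1.73 (7e-04). At E14.5 *G6pc2* had a change of -0.84 that did not pass (0.46).

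The genes beside the members were examined for their values. *Igf2* lies 11840 bases from *Ins2* and had a scaled count of at most 44.5 in *Isl1CKO* at E14.5, with a change of -0.11 (edgeR adjusted p = 0.95). At P9 it was too low to be tested. *Sorcs1*, the annotated neighbour before *Ins1* at a distance of 1585651 bases, had a log2 fold change of -1.27 at E14.5 (0.044) and one of 0.91 at P9 that did not pass (0.54). *Slco1a5*, which contains *Iapp*, had changes of 0.08 (0.99) and -1.58 (0.53), and its P9 counts of 0 to 41.2 in *Isl1CKO* were far below those of *Iapp*. *Slco1a6* and *Pyroxd1*, on either side of *Iapp*, were not called at either age. *AC136710.1*, after *Ins1*, and *Gm7290*, after *Ins2*, were too low to be tested.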

How the data were processed

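RNA was sequenced from 22 libraries of 100 sorted cells. Per the labels and methods, the authors trimmed reads (cutadapt 1.18, Trimmomatic), removed ribosomal reads (Bowtie 1.2.2, SortMeRNA), aligned with STAR 2.7.0c to GRCm38.p6 and counted uniquely mapped reads per gene. The deposited values are raw counts, in 1 table per age, with no row summing below 10, and all sample columns were used (0 left out). Members and gene lists were chosen with earlier results of these data known. Genes were tested with edgeR 4.0.16 quasi-likelihood fits (TMM factors, filterByExpr, Benjamini-Hochberg adjusted p under 0.05) within each age, and in a joint fit for age and for the difference of effects. Library totals are those of the deposited tables. Scaled counts are counts on the TMM scale. Ratios and shares were compared by exact two-sided permutation (scipy 1.17.1). Likeness and relations used log2 of TMM-scaled counts with 1 added, likeness among genes with a mean of at least 50 in each group. Named genes were the members, *Isl1*, annotated neighbours, the 3 genes most like each member and, from each list, the 4 or fewer lowest in p. Other genes of the lists were named after their values were seen. DESeq2 1.42.0, other scalings, filters and left-out libraries were tried. Fits were tested on simulated data. From the list of insulin gene regulators 1 gene is not reported here. Labels call the libraries of a group separate samples, and p-values measure the spread between these samples.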

Additional observations from a re-analysis of the deposited data

How the results depend on the processing

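Of 499 alternative values with a test, 474 kept their direction and their side of the threshold, and of 113 alternative counts of called genes, 99 lay within 1.5 times the main count. The falls of *Ins1* and *Ins2* at P9 and the rises of all 3 members with age did so under every alternative run, and with 1 library left out the P9 changes ranged from -1.85 to -1.58 for *Ins1* and from -2.14 to -1.84 for *Ins2*. *Iapp* at P9 did not: its log2 change was 0.050 with library totals and -0.71, then passing, without the 8 hormone genes in the totals, and from -0.72 to -0.52 with 1 library left out, passing without *Isl1CKO* library 2 or 3. Its share difference of 0.09 points became -2.25 with hormones left out of the total, and lay between -0.051 and 0.24 with 1 library left out. The difference of its effects between ages was 0.56 with library totals and from -0.27 to 0.34 with 1 library left out. The correlation of *Ins2* and *Iapp* in *Isl1CKO* P9 was -0.061 on library totals.

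The *Ins2* to *Ins1* difference at E14.5 became 0.73 as a difference of mean ranks, and lay between -0.22 and 0.094 with 1 library left out. Its fall with age in controls lay between -0.39 and -0.29, and its adjusted p rose to 0.0571 without control P9 library 1, 3 or 5. The *Iapp* to insulin difference at E14.5 lay between 0.30 and 0.53, and passed without control library 3 or *Isl1CKO* library 3. At P9 it was 1.28 under the replicate block (adjusted p = 0.125), where 5 pairs cannot give an exact p below 0.0625. Dividing by *Ins1* or *Ins2* alone, chosen after seeing the data, changed no call.

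Counts of called genes at E14.5 were 653 with DESeq2, 134 with the replicate block, 42 without *Isl1CKO* libraries 3, 4 and 5 (chosen after seeing the data), and 114 to 229 with 1 library left out. At P9 they were 1677 with DESeq2, 3962 with library totals and 336 with the block. For the difference of effects they were 924 with DESeq2, 3180 with library totals and 219 to 483 with 1 library left out, and for age in controls 10636 with library totals. Over all genes tested, deviations of same-numbered libraries had correlations of -0.05 to 0.05, which does not settle whether the numbers pair libraries. The block changed no call of a member in the fits across genes. At E14.5 it lowered the SE from 0.48 to 0.39 for *Ins1*, from 0.44 to 0.25 for *Ins2* and from 0.37 to 0.17 for *Iapp*. The edgeR p values under the block were 0.026, 0.0014 and 0.0042 before adjustment and 0.36, 0.096 and 0.16 after it.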
